A study of Saccharomyces cerevisiae with 6 samples.

Results

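The genes described here are the peroxins, which build the peroxisome and carry proteins into it, and the genes by which yeast oxidises fatty acids inside it. They were chosen by name from the platform's annotation of the array: every PEX gene followed by a number, together with 17 named genes of fatty acid oxidation and its control. That rule matched 42 of 6912 features, 1 for each of 26 peroxins, 15 oxidation genes and the transcription factor gene PIP2. PEX28 and OAF1 are not analysed here. The cells were Saccharomyces cerevisiae of strain S288C, grown at 25 °C in a rich medium with glucose. The treated cells had been exposed to 3.3 mM tetrachloroethylene, a chlorinated solvent, for 2 h, and the control was the culture at exponential growth before the solvent was added. No strain carried a deletion or a transgene according to the labels. Poly(A) RNA of treated cells (Cy5) and of control cells (Cy3) from 3 independent biological samples went onto separate arrays, and every array was read at both a high and a low laser power.

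Yeast degrades fatty acids only in peroxisomes, organelles that import their enzymes already folded from the cytosol. Import uses cycling receptors that bind a targeting signal, dock at the membrane, release their cargo and are returned to the cytosol after ubiquitination. On glucose the oxidation genes are repressed, and on oleate they are induced by the factor pair Oaf1 and Pip2 together with Adr1.

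A value below is the log2 ratio of treated over control cells, averaged over the scans of a hybridisation. Each gene was tested against a ratio of 0 by limma with Benjamini-Hochberg adjustment over 5349 genes, and "rose" or "fell" is used for an adjusted p under 0.05. The labels give no log base and no direction for the deposited ratios, so all signs rest on reading them as log2 of Cy5 over Cy3. Dyes were not exchanged and no control was taken at the later time, so the solvent, the dye and the elapsed time cannot be told apart. Ratios carry no level per cell, so strain markers could not be checked. The stress gene HSP12 had 3.75, 3.94 and 5.04 in hybridisations 1, 2 and 3, with only the low power scan read in hybridisations 2 and 3. Hybridisation 1 stood apart from the others: over all tested genes its Pearson r with hybridisations 2 and 3 was 0.56 with each, against 0.84 between hybridisations 2 and 3.

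Few of these genes passed the test, and both directions were represented. Of 26 peroxins, PEX9 and PEX21 rose, PEX31 fell and 23 did not pass. Of 14 oxidation genes measured in all 3 hybridisations, CAT2 rose, 0 fell by limma and 13 did not pass. At an unadjusted p under 0.05, 6 peroxins were higher and 3 lower, and 5 oxidation genes were higher and 1 lower. Such a p was found for 2064 of all 5349 tested genes, 945 higher and 1119 lower. Among all genes 21.0% passed, 9.14% higher and 11.9% lower, so the 4 of 41 tested members are a smaller share than that background. Of the 41 tested members, a mean change of at least 2-fold was found for CAT2, which was higher, and for PEX31, which was lower. Among all 5349 tested genes, 304 were at least 2-fold higher and 308 at least 2-fold lower. The counts of genes that passed depended on single arrays. Without hybridisation 1, 8 peroxins rose and 2 fell, and 8 oxidation genes rose and 1 fell, where the background was 42.6%, with 20.8% higher and 21.9% lower. Without hybridisation 2, PEX31 alone was called of the members, against 14.3% of all genes. Without hybridisation 3, 1 of 5349 genes (0.0187%) passed by limma and 0 members did, so calls lost in that setting say nothing of single members. An unadjusted p under 0.05 was found there for 8 members and for 1314 of all 5349 genes.

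Set against each other, the peroxins were centred lower than the oxidation genes in each hybridisation. The median log2 ratio of the 26 peroxins was -0.02, 0.25 and 0.19 in hybridisations 1, 2 and 3, and that of the 14 oxidation genes was 0.23, 0.48 and 0.55. The medians averaged 0.14 ± 0.14 for peroxins and 0.42 ± 0.17 for oxidation genes (SD, n = 3 hybridisations), beside -0.04 ± 0.04 for all tested genes. Peroxins minus oxidation genes gave -0.25, -0.22 and -0.36, a mean of -0.28 ± 0.07. Mean ratios above 0 were found for 14 of 26 peroxins and 12 of 14 oxidation genes, against 48.2% of all tested genes. The peroxin means ran from -1.32 to 0.87 and the oxidation means from -0.69 to 1.04, so the groups overlapped over most of their range. No p is given for this comparison, since the members were chosen by name with results of these arrays known. With the low power scan alone, the difference turned to 0.08. In that setting 18 peroxins were left and a single oxidation gene, MDH3.

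**Figure D1:**
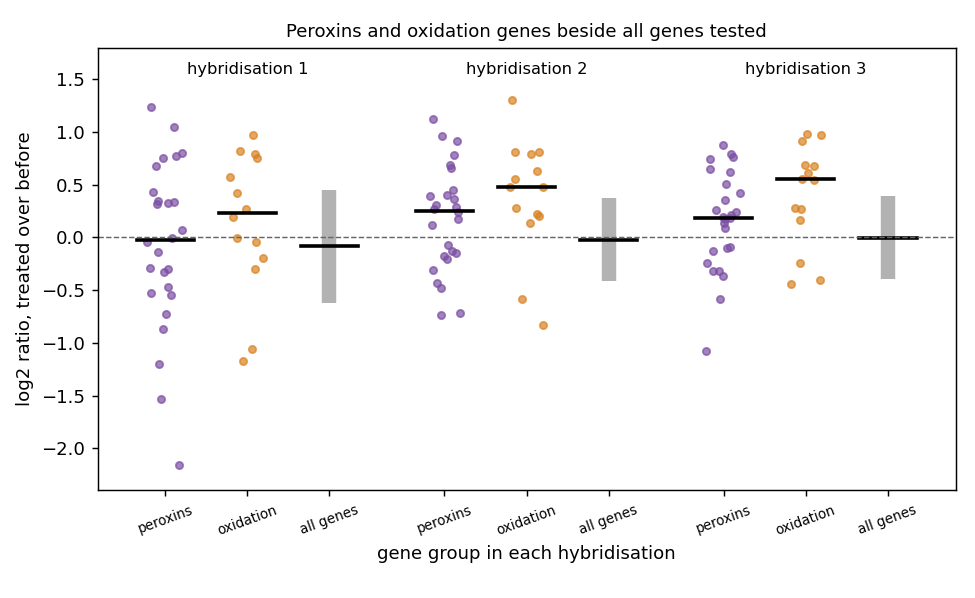
Log2 ratios (treated over before treatment, vertical axis) of each peroxin and oxidation gene in hybridisations 1, 2 and 3; points are genes, black bars medians, and grey bars the interquartile range of all 5349 tested genes. The oxidation median lies above the peroxin median in each hybridisation, with wide overlap of the points.

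The 2 highest peroxin means belonged to import receptors. All 5 genes of this role had mean ratios above 0, with a median over the role of 0.68, 0.66 and 0.42 in the 3 hybridisations. PEX21 (YGR239C), a co-receptor that works with Pex7, had 1.23, 0.96 and 0.42 in hybridisations 1, 2 and 3. Its mean of 0.87 ± 0.41 (SD, n = 3), or 1.83-fold, passed (adjusted p = 0.0346 by limma), and hybridisation 3 was the lowest. The mean was 0.83 without hybridisation 2 (adjusted p = 0.107), 1.10 without hybridisation 3 (0.0987) and 0.79 with the high power scan alone (0.0519), and none of these passed. PEX9 (YMR018W), a receptor for a small group of matrix proteins, had 0.78, 0.66 and 0.87, the closest agreement among the 3 called peroxins. Its mean was 0.77 ± 0.11, or 1.71-fold (adjusted p = 0.0283 by limma). It was 0.83 without hybridisation 2 (adjusted p = 0.103), 0.72 without hybridisation 3 (0.189) and 0.70 with the low power scan alone (0.0741), none of which passed. As 1 of 5349 genes passed without hybridisation 3, the calls lost there say nothing of PEX21 or PEX9.

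The general receptors did not pass. PEX5 (YDR244W), receptor for the C-terminal targeting signal that most matrix proteins carry, had -0.29, 0.29 and 0.65. Its 95% interval ran from -0.33 to 0.76. The sign in hybridisation 1 depended on the scan, with 0.06 at high and -0.64 at low power. In hybridisation 2 the scans of PEX5 gave 0.70 at high and -0.13 at low power. The mean of PEX5 was 0.53 with the high power scan alone and -0.10 with the low power scan alone. PEX7 (YDR142C), receptor for the N-terminal signal used by the thiolase Pot1, had 0.68, 0.69 and 0.26 (mean 0.54, adjusted p = 0.0850 by limma). PEX18 (YHR160C), the other co-receptor of Pex7, had 0.33, -0.15 and 0.24, and its interval of -0.32 to 0.60 spanned 0.

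Of 4 genes of the docking complex, to which loaded receptors bind, and its inner face, 0 passed by limma and 1, PEX17, had an unadjusted p under 0.05. PEX17, a docking subunit, had 0.34, 0.92 and 0.79, all above 0, with a mean of 0.68 ± 0.30 (adjusted p = 0.0527 by limma). PEX8, which sits on the inner face of the membrane, had 0.76, 0.36 and 0.22, and the docking subunit PEX14 had 0.43, 0.39 and 0.09. The third docking subunit measured, PEX13, had -0.33, 0.18 and -0.13 and thus no common sign.

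Of 6 genes acting after docking, 5 had means below 0. The RING ubiquitin ligases that mark receptors for return were represented by PEX2 and PEX10. PEX2 had -0.53, -0.48 and -0.24, all below 0, and did not pass (adjusted p = 0.142 by limma). The size of its mean depended on the scan, at -0.13 with the high power scan alone and -0.70 with the low power scan alone. PEX10 had -1.53, -0.17 and -0.09, so its mean of -0.60 rested on hybridisation 1, and it was -0.13 without that array. Among genes of receptor recycling, PEX6, an ATPase that extracts receptors, had a mean of -0.31, its membrane anchor PEX15 -0.37 and the ubiquitin-conjugating enzyme PEX4 -0.18. PEX22, which anchors Pex4 at the membrane, went the other way with 1.05, 0.24 and 0.62 and a mean of 0.64 ± 0.41 (adjusted p = 0.0777 by limma). Of these 4 recycling genes 0 passed by limma, and PEX22 had an unadjusted p under 0.05.

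For membrane protein insertion, PEX19, the cytosolic chaperone of peroxisomal membrane proteins, had 0.31, 0.40 and 0.51, and its membrane partner PEX3 had 0.80, 0.31 and 0.13. Both were above 0 in all 3 hybridisations, with means of 0.41 for PEX19 and 0.42 for PEX3, and neither passed, nor had an unadjusted p under 0.05.

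Genes of peroxisome proliferation and division differed in sign among themselves. PEX11 (YOL147C), which elongates the membrane before division and is known as an oleate-induced gene, had -0.55, -0.74 and -0.32, below 0 on each array. Its mean was -0.53 ± 0.21 with a 95% interval of -0.98 to -0.09, and it did not pass (adjusted p = 0.0841 by limma). PEX27, of the same family, had 0.35, 1.13 and 0.74 (adjusted p = 0.0516 by limma). PEX25, the family's remaining member, had -0.01, -0.07 and -0.36. PEX35 had a mean of 0.29, and PEX34, which acts with Pex11, one of -0.05.

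The lowest mean of all members came from a gene that sets peroxisome number and size. PEX31 (YGR004W) had -2.16, -0.72 and -1.08, with hybridisation 1, where only the high power scan held a value, the farthest below 0. Its mean of -1.32 ± 0.75, or 2.50-fold lower, passed (adjusted p = 0.0246 by limma). Without hybridisation 1 the mean was -0.90 and the gene passed. Without hybridisation 3, where 1 of 5349 genes passed, it was -1.44 and PEX31 did not pass (adjusted p = 0.104). PEX30, which shapes endoplasmic reticulum from which peroxisomal membrane can form, had -1.20, -0.20 and -0.59, again below 0 on each array and lowest in hybridisation 1 (adjusted p = 0.0874 by limma). PEX32 had -0.47, 0.27 and 0.18, and PEX29 had -0.14, 0.78 and 0.76.

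**Figure D2:**
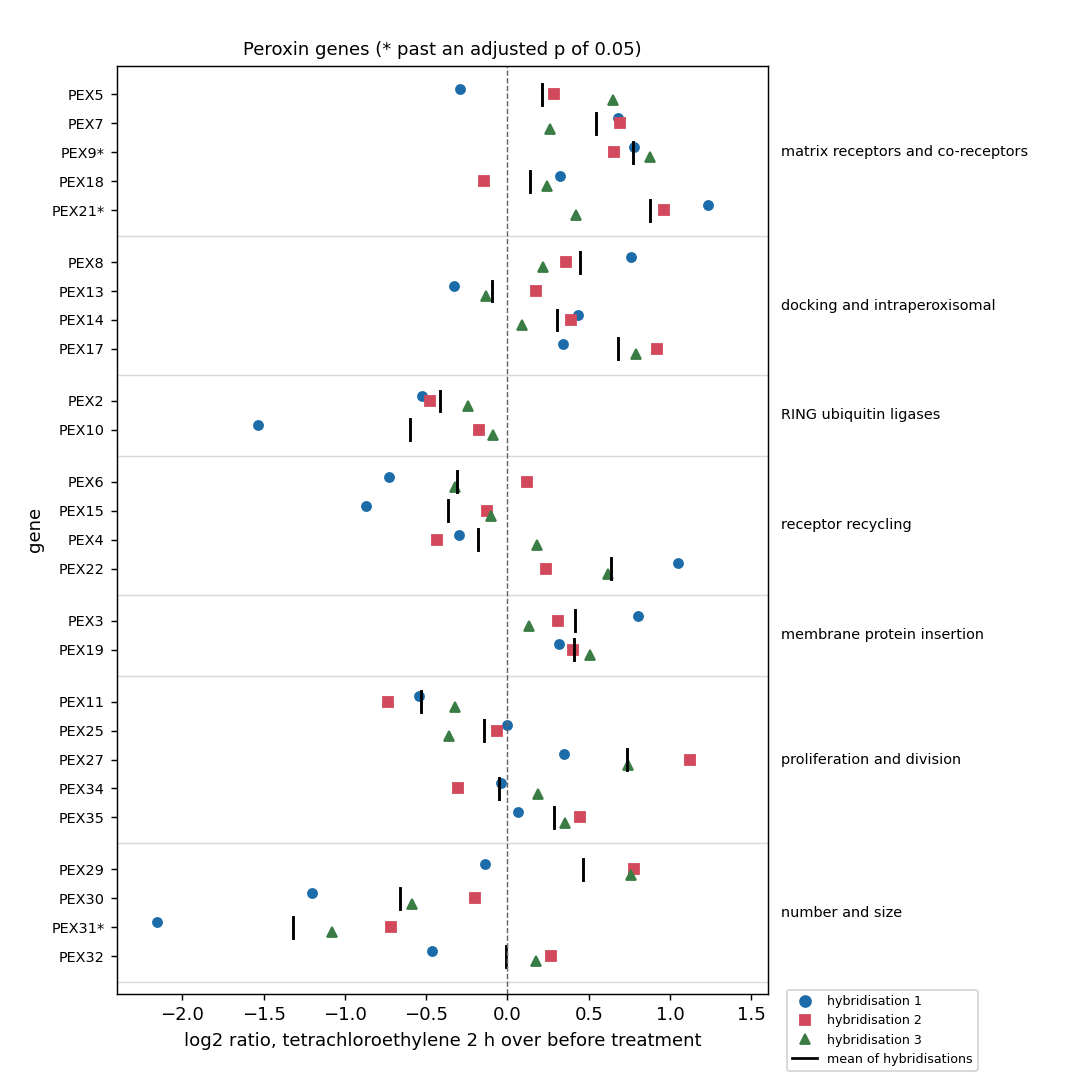
Log2 ratio (horizontal axis) of each of 26 peroxin genes in hybridisations 1, 2 and 3 (coloured symbols) with their mean (black bar), grouped by role; an asterisk marks an adjusted p under 0.05. PEX9 and PEX21 lie right of 0 on all arrays and PEX31 left of 0, and hybridisation 1 gives the lowest points of PEX10, PEX30 and PEX31.

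In the oxidation spiral itself 0 of 3 genes passed by limma, and FOX2 had an unadjusted p under 0.05. POX1 (YGL205W), the acyl-CoA oxidase of the first step, had 0.27, 0.20 and 0.28. The arrays agreed closely for it, with an SD of 0.04, and its 95% interval from -0.17 to 0.67 included 0. FOX2 (YKR009C), the multifunctional hydratase and dehydrogenase of the middle steps, had 0.75, 0.55 and 0.55, a mean of 0.62 ± 0.12 or 1.53-fold (adjusted p = 0.0523 by limma). POT1 (YIL160C), the thiolase of the last step, had 0.58, -0.83 and 0.56, with hybridisation 2 opposite to the other arrays. The 3 genes of consecutive steps thus had means of 0.25, 0.62 and 0.10.

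The auxiliary enzymes handle unsaturated or unusual acyl-CoA. ECI1, the enoyl-CoA isomerase, had 0.79, 0.80 and 0.27 (adjusted p = 0.0677 by limma). Its homologue DCI1 had -1.17, 0.14 and -0.41. SPS19, the dienoyl-CoA reductase, had 0.19, 0.48 and 0.92, and the thioesterase TES1 had 0.97, 0.63 and -0.25. Of these 4 genes 0 passed by limma, while ECI1 and SPS19 had an unadjusted p under 0.05.

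The lowest oxidation mean belonged to a gene of fatty acid entry and activation. ANT1 (YPR128C), which carries ATP into the peroxisome for the activation of fatty acids, had -1.06, -0.58 and -0.44, the only oxidation gene below 0 on all 3 arrays. Its mean of -0.69 ± 0.32 was 1.62-fold lower (adjusted p = 0.0529 by limma). FAA2, the acyl-CoA synthetase that uses this ATP, had -0.19, 0.22 and 0.16. The ABC half-transporter PXA2 had 0.47 and 0.68 in hybridisations 2 and 3 and lay close to 0 in hybridisation 1. Its partner PXA1 had no value in hybridisation 1 and was not tested with the others. It had -0.18 in hybridisation 2 and 0.16 in hybridisation 3.

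The carnitine and redox shuttles, which move acetyl units and reducing power between peroxisome, cytosol and mitochondrion, held the 1 oxidation gene that passed. CAT2 (YML042W), the carnitine acetyltransferase of peroxisomes and mitochondria, had 0.82, 1.31 and 0.99. All 3 values were well above 0, and the mean of 1.04 ± 0.25, or 2.05-fold, had an adjusted p of 0.0162 by limma and a 95% interval of 0.58 to 1.49. Without hybridisation 2 it was 0.90 (adjusted p = 0.0718) and without hybridisation 3 it was 1.06 (0.109), and neither passed. In the latter setting 1 of 5349 genes passed, so that loss says nothing of CAT2 itself. CAT2 was the only member called with a minimum fold of 1.2. CRC1, the mitochondrial carnitine carrier, had -0.05, 0.81 and 0.97, close to 0 in hybridisation 1 alone (adjusted p = 0.132 by limma). IDP3, which supplies the NADPH that Sps19 uses, had 0.42, 0.81 and 0.68, and the malate dehydrogenase MDH3, which reoxidises NADH, had -0.30, 0.28 and 0.62. The 4 shuttle genes all had means above 0.

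PIP2, the only oleate regulator measured, had 0.39, -0.59 and 0.17, with a mean of -0.01 ± 0.51 and a 95% interval of -0.57 to 0.56. Its value in hybridisation 2 came from scans that differed widely, -0.06 at high and -1.12 at low power.

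**Figure D3:**
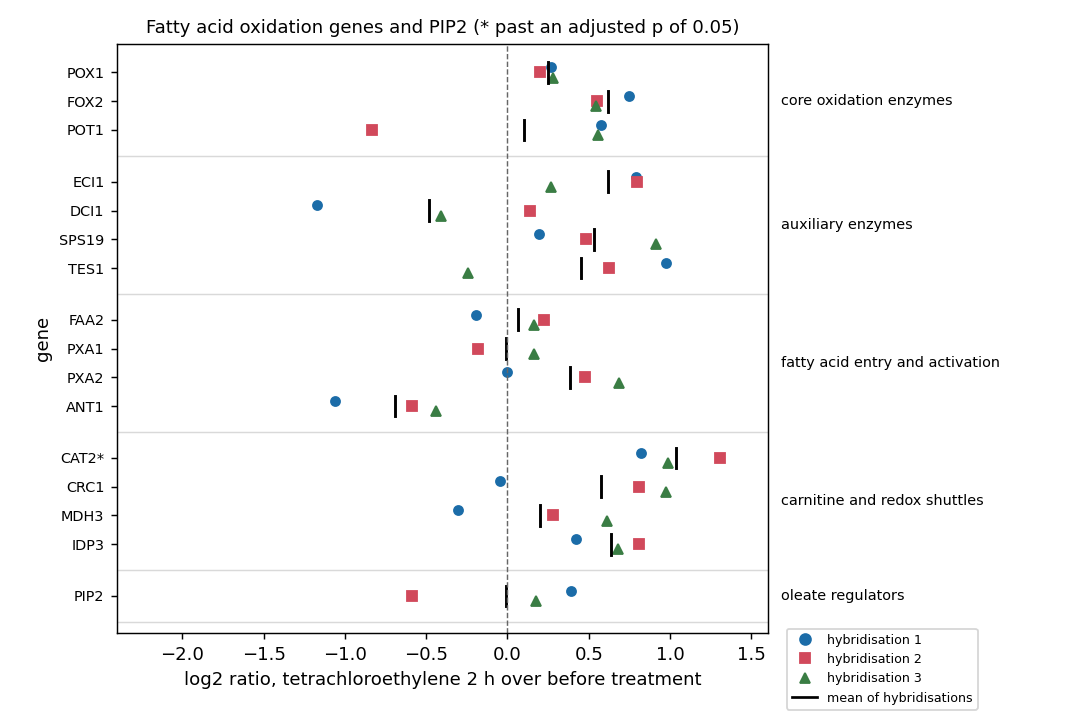
Log2 ratio (horizontal axis) of each of 15 oxidation genes and PIP2 in hybridisations 1, 2 and 3 (coloured symbols) with the mean of the available hybridisations (black bar), grouped by role; an asterisk marks an adjusted p under 0.05. CAT2 lies farthest right, between 0.82 and 1.31, and ANT1 lies left of 0 on each array.

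A group of 5 members narrowly missed the threshold, at adjusted p-values between 0.0516 and 0.0529 by limma. These were PEX17, PEX27, FOX2 and IDP3, with means above 0, and ANT1, with a mean below 0. None of them changed sign between hybridisations. Such agreement was found for 25 of 41 tested members, 17 above 0 and 8 below, while among all tested genes the share was 58.8%, with 27.5% above and 31.3% below. By class, 11 peroxins were above and 7 below on every array, and 6 oxidation genes were above and 1 below.

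Related genes did not move as units. PEX21 minus PEX18 gave 0.91, 1.11 and 0.18 in hybridisations 1, 2 and 3, and PEX9 minus PEX5 gave 1.07, 0.37 and 0.22. PEX27 minus PEX25 gave 0.35, 1.19 and 1.11. In these 3 pairs the gene named first was the higher on every array. PEX31 minus PEX30 gave -0.96, -0.52 and -0.49, and PEX31 minus PEX32 gave -1.69, -0.99 and -1.26. The isomerase pair differed in sign in hybridisations 1 and 3, while both genes were above 0 in hybridisation 2. ECI1 minus DCI1 gave 1.96, 0.66 and 0.68, farthest apart in hybridisation 1. For the ABC half-transporters, PXA2 minus PXA1 gave 0.66 and 0.52 on the 2 arrays that read both. With 3 arrays an exact two-sided sign test of a difference cannot go below p = 0.25, and these pairs were picked with the values known, so no p is given.

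**Figure D4:**
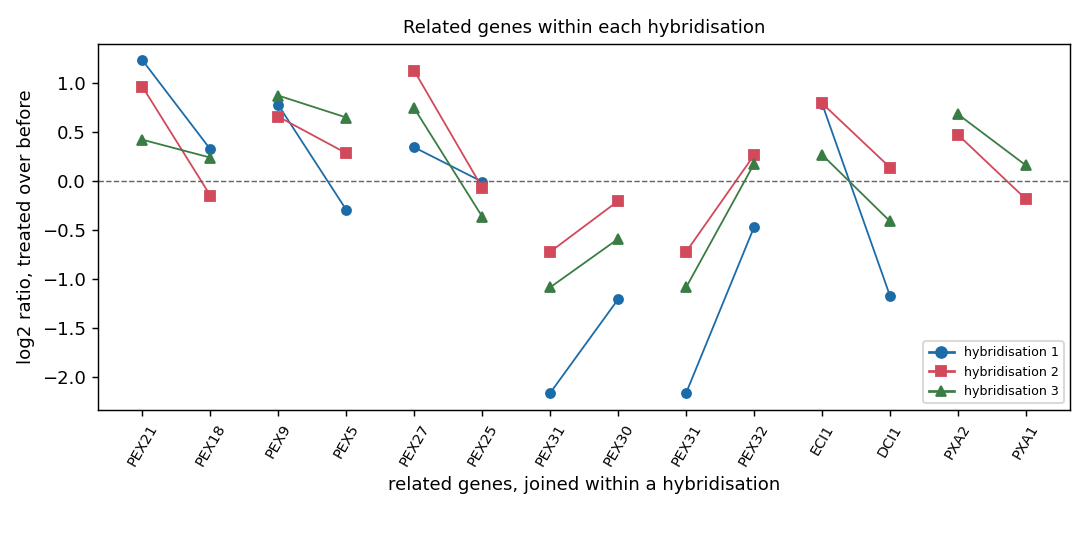
Log2 ratios (vertical axis) of pairs of related genes, joined by a line within each hybridisation; PXA1 was read in hybridisations 2 and 3 only. Every line of a pair slopes the same way, and the slopes differ most in size for ECI1 and DCI1.

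The scans of an array did not cover the members evenly. In hybridisation 1 the low power scan held a value for 18 of 26 peroxins and for 1 of 15 oxidation genes, MDH3, against 64.3% of all named genes. In hybridisations 2 and 3 it held all 42 members. The oxidation values of hybridisation 1 therefore rest on the high power scan, apart from that of MDH3. The same holds for the peroxins without a low power value there, among them PEX10, PEX30 and PEX31. Where both scans had a value, they differed by a median of 0.20, 0.46 and 0.22 on the log2 scale in hybridisations 1, 2 and 3, against 0.17, 0.35 and 0.20 over all genes. In hybridisation 2, 19 of 42 members differed by over 0.5 between scans, and 7 had opposite signs. These were not counted over all genes, so they do not set the members apart. The calls differed between scans, at shares of all genes that were 21.4% with the high power scan alone, 24.0% with the low power scan alone and 20.4% when the low power scan of hybridisation 2 was dropped. With the high power scan alone, CAT2, FOX2, IDP3, PEX9, PEX17, PEX22 and PEX27 rose and PEX31 fell. With the low power scan alone, 20 members were measured, of which PEX7, PEX17, PEX21 and PEX27 rose. Without the low power scan of hybridisation 2, a choice made after the data were seen, CAT2, FOX2, IDP3, PEX9, PEX21 and PEX22 rose and PEX31 fell.

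**Figure D5:**
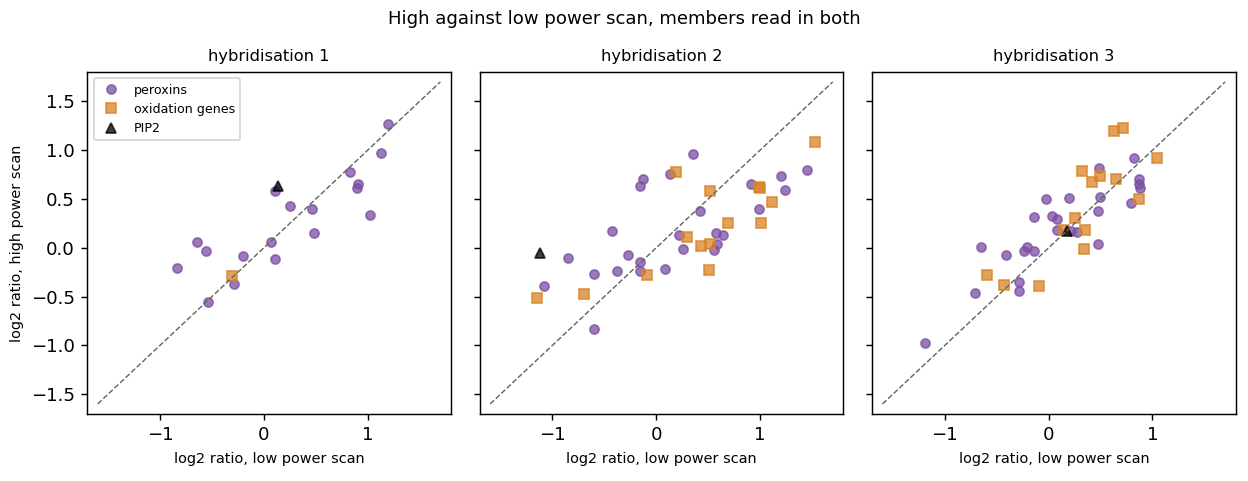
Log2 ratio in the high power scan (vertical axis) against the low power scan (horizontal axis) for members read in both, 1 panel for each hybridisation; the dashed line marks equal values. Points of hybridisation 2 lie farthest from the line, PIP2 among them, and hybridisation 1 shows a single oxidation gene.

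Members agreed between arrays to a moderate degree. Across the 41 genes, which are not independent of each other, Pearson r was 0.57 between hybridisations 1 and 2, 0.64 between 1 and 3 and 0.65 between 2 and 3. Across the 26 peroxins it was 0.67, 0.72 and 0.77, and across the 14 oxidation genes 0.47, 0.46 and 0.47. Between hybridisations 2 and 3, r was lower over the members (0.65) than over all genes (0.84), while the pairs with hybridisation 1 were similar or higher. Pearson r also depends on spread, which was smaller over the members. Their SD was 0.53 and 0.48 in hybridisations 2 and 3, against 0.65 and 0.67 over all genes. Whether this accounts for the lower r was not tested. The signs of hybridisations 2 and 3 matched for 32 of 41 members, a count that was not made over all genes.

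Of 35 further genes linked to peroxisomes, fatty acids and their control, 2 rose, 32 did not pass and 1 fell, where 21.0% of all genes passed. The list had medians of 0.19, 0.11 and 0.25 in the 3 hybridisations. ADR1, the activator of oxidation genes on poor carbon sources, rose with 1.13, 0.61 and 1.06 (mean 0.93 ± 0.28, adjusted p = 0.0212 by limma), and had 0.87 without hybridisation 3 (0.151) and an adjusted p of 0.0566 with a minimum fold of 1.2, neither past the threshold. PNC1, a nicotinamidase that can be imported into peroxisomes, rose most of this list with 2.32, 1.68 and 1.01 (mean 1.67 ± 0.66, adjusted p = 0.0120 by limma). Its values in hybridisations 2 and 3 came from the low power scan alone. Without hybridisation 3 PNC1 had 2.00 (0.0737), which did not pass. FAT1, which takes part in fatty acid uptake and activation, fell with -1.57, -0.77 and -0.50 (mean -0.95 ± 0.56, adjusted p = 0.0399). It did not pass without hybridisation 3 (mean -1.17, 0.105), with a minimum fold of 1.2 (0.0982), when only high power scans were used (0.0558) and when the low power scan of hybridisation 2 was dropped (0.0659). As 1 of 5349 genes passed without hybridisation 3, the calls lost there say nothing of ADR1, PNC1 or FAT1. The peroxisomal catalase gene CTA1 had -0.25, -0.47 and -1.15 and did not pass. Of the 8 genes of fatty acid and carnitine metabolism in this list, 7 did not pass, among them YAT2, a cytosolic carnitine acetyltransferase, with 1.63, -0.01 and -0.38. Of 6 genes of peroxisome inheritance and division 0 passed by limma and 0 had an unadjusted p under 0.05, and of 4 genes of the glyoxylate cycle 0 passed and 1, SFC1, had such a p.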

How the data were processed

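Two-colour arrays compared treated (Cy5) with untreated (Cy3) yeast in 3 hybridisations of 2 scans each. Per the labels, the deposited values were normalised by the authors with LOWESS over spots of flag 0. They were read here as log2 ratios of Cy5 over Cy3, since neither base nor direction is stated. The scanner, spot software and background correction were not given in the sources used here. No intensities were used, so dim or saturated spots could not be told apart, and the number of arrays limits precision. The platform annotation named 1 gene for 5513 of 6912 features, and a RefSeq gene table of assembly R64 matched 5508 of these. No build was given for the array, so no coordinates are printed. Scans of a hybridisation were averaged (1 scan where the other had no value), then features of a gene. Genes with values in all 3 hybridisations (5349 of 5365) were fitted with limma 3.58.1 in R 4.3.3 (intercept only, eBayes, two-sided), and p-values were adjusted over all of them. The procedure was tested on simulated data. Errors are SD over hybridisations, which the labels call independent biological samples. Genes described array by array were those past the threshold, the extremes of each class and fixed names such as POX1, FOX2, POT1, PEX5, PEX7, PEX11, PEX18, CRC1 and PIP2; others are given for their role. Members and lists were chosen with earlier results of these data known. Alternatives left out arrays or scans, kept scans apart with hybridisation as a random block, rescaled arrays, set a minimum fold of 1.2 or asked for 2 of 3 hybridisations.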

Additional observations from a re-analysis of the deposited data

How the results depend on the processing

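No separate paired analysis was needed, because treated and control RNA shared each array and the ratio tested is itself the paired value. The count of 3 peroxins past the threshold was 5 when arrays were scaled, quantile normalised or centred on their medians, and with the high power scan alone. It was 7 with scans kept apart and hybridisation as a random block, and 0 with a minimum fold of 1.2. With that minimum fold 5 peroxins had an unadjusted p under 0.05 by limma, as did 1356 of all 5349 genes. Leaving out an array gave 0 to 10 peroxins and 0 to 9 oxidation genes. On 2 arrays without hybridisation 1, limma assigned every gene the same standard error of 0.19, so those calls follow the size of the mean. The count of 1 oxidation gene was 3 with the high power scan alone, after median centring and when the low power scan of hybridisation 2 was dropped, 4 after scaling and after quantile normalisation, 5 with the random block and 2 with scan values within 0.5. It was 0 for genes read in all 6 scans and for the low power scan by itself, where MDH3 was the 1 oxidation gene left and its unadjusted p also missed 0.05. The count of 1125 of 5349 genes among all also moved. It was 1491 after scaling, 1453 after quantile normalisation, 1132 after median centring, 1741 with the random block and 514 with the minimum fold. With an array left out it lay between 1 and 2281. Fewer genes were tested in other settings. There it was 546 of 2672 genes read in all 6 scans, 689 of 3442 with scan values within 0.5 and 977 of 4572 with the high power scan alone. The median of peroxins was 0.31 with low power scans only and 0.34 with genes read in all 6 scans, against 0.14 in the main fit. That of oxidation genes was 0.24 and 0.20, against 0.42, and the difference turned to 0.078 and 0.14. Both settings left 18 of 26 peroxins and a single oxidation gene, so both medians rest on other genes than in the main fit. With scan values within 0.5 the difference was -0.36. With an array left out it ran from -0.31 to -0.24, and under the remaining settings it moved by less than its SD. Among the called members, CAT2 kept its call in 10 of 12 settings, PEX21 in 10 of 14, PEX31 in 10 of 12 and PEX9 in 9 of 13. Each of them lost it without hybridisation 3, where 1 of 5349 genes passed. With the minimum fold, PEX9 (adjusted p = 0.0903), PEX21 (0.0939) and PEX31 (0.0511) lost their calls, as did the related genes ADR1 (0.0566) and FAT1 (0.0982).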
